A study of Homo sapiens with 6 samples.

Results

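GAS5 and 8 further snoRNA host transcripts (SNHG1, SNHG5, SNHG6, SNHG7, SNHG8, SNHG12, SNHG15 and ZFAS1) were followed in RNA precipitated with Ago2, the Argonaute protein that holds microRNAs. They were taken by gene name from the deposited table of 48162 genes. All 9 names had 1 row each and all 9 were among the 16233 genes that passed the filter on low counts. The cells were HEK293, an established human embryonic kidney line. Each culture had received Flag-Ago2 together with a mimic of mir-219 (3 libraries) or with a negative control mimic (3 libraries), and an antibody against the tag was used to precipitate the complex. Each mimic had 1 library dated 22 August, 5 September and 18 September. Transfected Flag-Ago2 was thus shared by both groups, and cells without it, and RNA before precipitation, were not analysed here. A level can therefore reflect either the amount of a transcript in the cells or its binding, which cannot be told apart, and in such bulk samples fewer cells making a transcript cannot be told apart from less of it per cell.

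These genes carry small nucleolar RNAs in their introns. After splicing the introns are trimmed to the snoRNAs, which guide the chemical modification of ribosomal RNA, while the joined exons leave the nucleus as a transcript that codes for little or no protein. Many such transcripts begin with a terminal oligopyrimidine (TOP) tract, the run of C and T bases that also opens ribosomal protein mRNAs. Ribosomes enter their short open reading frames and stop early, and nonsense-mediated decay (NMD) then removes the RNA, so GAS5 rises in growth-arrested cells in which translation is low. GAS5 and SNHG1 are the classical examples, and GAS5 has also been studied as a decoy for the glucocorticoid receptor and for microRNAs.

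The start of 7 of the 9 genes is shown because several of them share features there that the choice by name did not use. The lines below run from 40 bases before to 20 bases from the first base of the transcript on, read on the gene's strand, from RefSeq on GRCh38.p14. Capitals mark TATAA where it lies between 40 and 20 bases before the start, and the unbroken run of C and T that begins at the first base of the transcript.
GAS5: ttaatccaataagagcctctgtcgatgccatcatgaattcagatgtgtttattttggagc
SNHG1: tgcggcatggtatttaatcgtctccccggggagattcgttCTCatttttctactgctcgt
SNHG5: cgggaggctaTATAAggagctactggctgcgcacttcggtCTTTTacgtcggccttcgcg
SNHG7: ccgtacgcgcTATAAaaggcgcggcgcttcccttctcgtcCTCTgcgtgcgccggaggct
SNHG8: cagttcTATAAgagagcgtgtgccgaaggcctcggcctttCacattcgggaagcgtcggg
SNHG12: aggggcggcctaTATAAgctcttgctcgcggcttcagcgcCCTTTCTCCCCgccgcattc
ZFAS1: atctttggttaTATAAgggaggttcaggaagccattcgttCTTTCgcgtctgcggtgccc

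On GRCh38.p14 these windows lie at chr1:173869026-173869085 on the minus strand for GAS5 and at chr11:62855866-62855925 on the minus strand for SNHG1. The windows of SNHG5, SNHG7 and SNHG12 are on the minus strand at chr6:85678714-85678773, chr9:136728165-136728224 and chr1:28581854-28581913. SNHG8 and ZFAS1 are on the plus strand at chr4:118278722-118278781 and chr20:49278602-49278661. Windows of SNHG6 and SNHG15 are not shown.

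Of these 7 genes, 6 began with C, against 14.7% of all RefSeq promoters and 63.1% of ribosomal protein promoters. In 3 (SNHG5, SNHG12 and ZFAS1) this C was followed by at least 4 further bases that were each C or T. The same opening was found in 4.07% of 35116 RefSeq promoters and in 57.1% of 84 ribosomal protein promoters. SNHG12 had the longest run, with 11 bases. GAS5 began with A at the RefSeq start and had no run there, and no other start of GAS5 was looked at. TATAA was found in the stated window, on the gene's strand only, in 5 of the 7 members, against 3.77% of all promoters and 10.7% of those of ribosomal proteins. A match is a string of letters, and no binding was measured.

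The transfected RNA is the other sequence of interest. Which mature strand was supplied is not stated in the labels, so both strands of the MIR219A2 hairpin are given from RefSeq, with bases 2 to 8, the seed that pairs with targets, in capitals.
hsa-miR-219a-5p: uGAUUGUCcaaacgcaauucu
hsa-miR-219a-2-3p: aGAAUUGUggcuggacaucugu

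They lie on the minus strand at chr9:128392676-128392696 and chr9:128392632-128392653 of GRCh38.p14. The bodies of the host transcripts were not searched for the seeds, since no transcript sequence was used here.

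Libraries held 20233819 to 34408699 counts. The 9 members together made up 293, 474 and 439 CPM (counts scaled to a common TMM-normalised library size) with the mimic and 491, 409 and 458 CPM under the control mimic, in date order. All 7 HEK293 markers looked at (NEFL, NEFM, INA, KRT8, KRT18, VIM and PAX2) were detected in every library and summed to between 1498 and 1952 CPM. Transcripts of other tissues were also present in some libraries. The plasma cell list (4 genes with a row, IGKC at 0 throughout) summed to 0.0345, 5.46 and 6.62 CPM under miR-219 and to 17.4, 0.0591 and 14.2 CPM under the control mimic. IGHA1, which encodes an antibody heavy chain, was counted 0, 146 and 135 times under miR-219 and 422, 0 and 257 times under the control mimic. The 7 intestinal genes summed to 10.2, 14.6 and 30.3 CPM under miR-219 and to 35.3, 14.4 and 37.0 CPM under the control mimic. CDX2 alone gave 9.84, 8.53 and 16.4 CPM and 11.7, 13.3 and 21.8 CPM of these. FABP1, TFF3 and MUC2 were at 0 in the mimic library of 22 August and the control library of 5 September. PIGR and LGALS4 were also lowest in these 2, while VIL1 was lowest in the mimic library of 5 September. The 2 libraries with no IGHA1 read, the mimic library of 22 August and the control library of 5 September, also stood apart in the members, as described below. Only the control library of 5 September held much HBB, a haemoglobin gene (690 CPM, against less than 0.1 CPM in each other library).

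Levels between members can be compared only per length. SNHG5 had the highest mean, 56.1 ± 13.3 CPM per kilobase (SD, n = 6 libraries), and differed from the next by more than either SD. GAS5 followed with 34.4 ± 5.72 CPM per kilobase, then ZFAS1 with 32.2 ± 7.93, SNHG7 with 31.8 ± 5.74 and SNHG1 with 27.6 ± 4.35. SNHG15 had 25.8 ± 5.25 and SNHG8 24.4 ± 7.42 CPM per kilobase. From GAS5 down to SNHG8 each neighbour lay within the spread of the other. SNHG12 (11.6 ± 2.63 CPM per kilobase) and SNHG6 (9.58 ± 3.25) were lowest, apart from SNHG8 by more than their SD and not apart from each other.

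With the mimic 0 of 9 members passed an adjusted p of 0.05 in edgeR's quasi-likelihood test, where 0% of all genes were called in either direction. The members had 0 unadjusted p-values under 0.05, against 488 of 16233 genes. DESeq2 called 0 members and 5 genes in all, and limma-voom called 0 and 0. The median log2 fold change of the 9 was −0.11, with 7 below 0, against a median of 0.00 and 49.7% below 0 over all tested genes. The libraries were replicates by date only, and the labels do not say whether they came from separate cultures, so these p-values measure the spread between samples, which may be technical.

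GAS5 (ENSG00000234741, chr1:173833038-173838020 of hg19, minus strand) carries the snoRNAs of the SNORD44, SNORD47 and SNORD74 to SNORD81 group. By date, GAS5 stood at 43.4, 56.3 and 62.2 CPM under miR-219 and 69.3, 52.2 and 66.9 CPM under the control mimic. The 2 groups overlapped because the control of 5 September stood below 2 of the mimic libraries. The means were 54.0 ± 9.60 CPM under miR-219 and 62.8 ± 9.23 CPM under the control mimic (SD, n = 3 each). The log2 fold change was −0.22 (SE 0.17, 95% CI −0.58 to 0.15), with an edgeR adjusted p of 0.999. Without both libraries of 22 August it was −0.0052. GAS5 shares 801 bases of its span with ZBTB37 on the other strand, which had 1.91 to 3.34 CPM in the 6 libraries.

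SNHG1 (ENSG00000255717, chr11:62619460-62623386, minus strand) carries SNORD22 and SNORD25 to SNORD31 and was the only member whose groups did not overlap. It had 54.9, 76.8 and 74.9 CPM under miR-219 against 90.9, 77.5 and 83.5 CPM under the control mimic. Its highest mimic library, at 76.8 CPM, was close to its lowest control, at 77.5 CPM. Over all tested genes 3.84% had groups apart with the mimic lower and 4.22% with the mimic higher, which 0 members did. The log2 fold change of SNHG1 was −0.29 (SE 0.16, 95% CI −0.62 to 0.05), the lowest unadjusted edgeR p among the members at 0.0903, with an adjusted p of 0.999.

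SNHG6 (ENSG00000245910, chr8:67833919-67838633, minus strand), the host of SNORD87, had the other sign. Its levels were 5.01, 8.28 and 8.56 CPM under miR-219 and 6.91, 3.08 and 5.41 CPM under the control mimic, from 104 to 235 counts per library. Of the mimic libraries the later 2 were above every control, and that of 22 August was not. The log2 fold change was 0.51 (SE 0.29, 95% CI −0.13 to 1.15; edgeR adjusted p 0.999). It was the scarcest member per length as well, and MCMDC2 on the other strand, which shares 365 bases with its span, was scarcer still at 0.599 to 1.57 CPM.

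The other 6 members lie, on hg19, at chr6:86370710-86388451 (SNHG5), chr9:139615818-139622636 (SNHG7), chr4:119199864-119200978 (SNHG8), chr1:28905050-28909495 (SNHG12), chr7:45022622-45026560 (SNHG15) and chr20:47894715-47905797 (ZFAS1). SNHG8 and ZFAS1 are on the plus strand and the rest on the minus strand. Among these 6 the log2 fold change lay between −0.20 and 0.01. SNHG7, host of SNORA17 and SNORA43, had 51.3, 74.1 and 83.5 CPM under miR-219 against 75.9, 73.0 and 91.7 CPM under the control mimic (log2 difference −0.20, SE 0.18). SNHG15, host of SNORA9, had 57.6, 95.7 and 71.8 CPM under miR-219 against 95.025, 93.7 and 69.5 CPM under the control mimic (log2 difference −0.20, SE 0.19). In both, the mimic library of 22 August was the lowest of the 6, while the other 5 intermingled. SNHG5, host of SNORD50A and SNORD50B, had 37.2, 74.4 and 55.0 CPM under miR-219 against 71.1, 50.1 and 58.6 CPM under the control mimic. ZFAS1, host of the SNORD12 group, had 20.9, 40.2 and 38.8 CPM under miR-219 against 38.1, 27.4 and 42.4 CPM under the control mimic. SNHG5 and ZFAS1 spanned a wide range within each group, and their log2 fold changes were −0.11 (SE 0.22) and −0.11 (SE 0.24). SNHG12, host of SNORA16A, SNORA44, SNORA61 and SNORD99, had 14.0, 27.7 and 24.1 CPM under miR-219 against 26.1, 20.3 and 20.3 CPM under the control mimic (log2 difference −0.02, SE 0.22). SNHG8, host of SNORA24, had 8.81, 20.3 and 20.1 CPM under miR-219 against 17.7, 11.5 and 19.8 CPM under the control mimic (log2 fold change 0.01, SE 0.29). SNHG5, SNHG8, SNHG12 and SNHG15 each held both their highest and their lowest library in the mimic group.

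**Figure D1:**
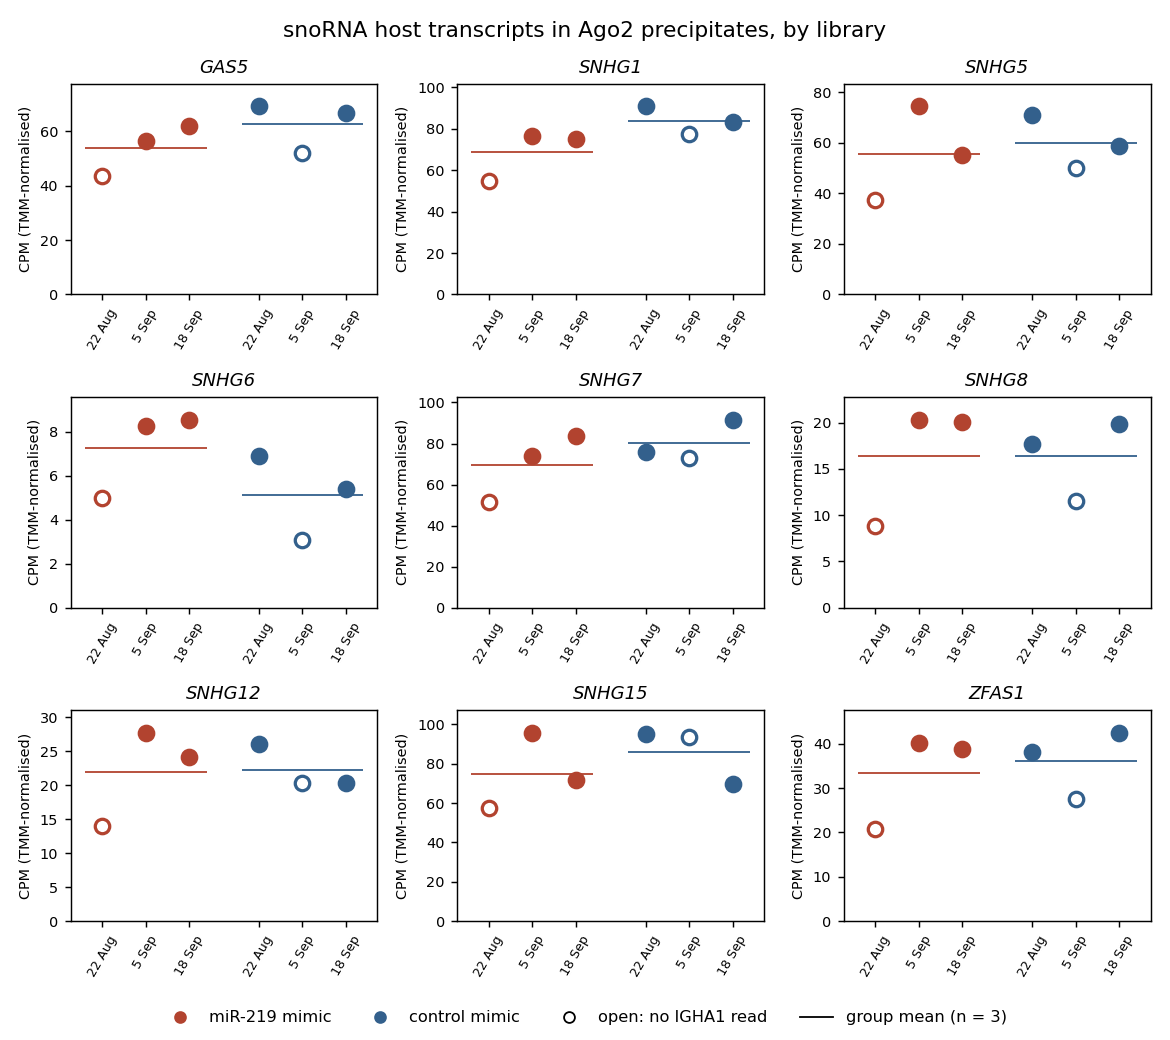
Level of each host transcript in CPM (y axis, TMM-normalised, from 0) in each library by date (x axis), mimic libraries left and control libraries right, with lines at group means (n = 3). Open circles mark the 2 libraries with no IGHA1 read, and the open mimic circle of 22 August is the lowest point for every member except SNHG6.

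Some members overlap genes on the other strand, and neither the labels nor the submitters' processing notes say whether counting used strand. SNHG7 shares 2685 bases of its span with FAM69B and ZFAS1 shares 249 with ZNFX1, both on the other strand. FAM69B had 24.9, 15.02 and 27.4 CPM under miR-219 and 22.9, 25.1 and 31.1 CPM under the control mimic. ZNFX1 had 89.1, 59.96 and 50.5 CPM under miR-219 and 57.2, 63.1 and 46.7 CPM under the control mimic, so on 22 August it was higher with the mimic while ZFAS1 was lower. Without that setting, it is not known how reads in the shared stretch of each pair were assigned.

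The ratio of mimic to control was then taken within each date. On 22 August all 9 were lower with the mimic, at 0.4995 to 0.728 of the control level, with a median log2 ratio of −0.73. Over all tested genes 47.99% were below 0 that day and the median was 0.02. A fall of 1.5-fold or more was met by 7 of the 9 members and by 7.8% of all genes, and a rise of that size by 0 members and 10.4% of all genes. SNHG8 had the lowest log2 ratio at −1.001 and SNHG5 followed with −0.93, while GAS5 had −0.67. With 1 library per mimic and date these ratios have no replicate check.

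On 5 September 8 of the 9 were above 0, with a median log2 ratio of 0.45. Over all tested genes 49.9% were below 0 that day and the median was 0.00. SNHG6 had 1.41, SNHG8 0.82, SNHG5 0.57, ZFAS1 0.55 and SNHG12 0.45. GAS5 (0.11), SNHG15 (0.03), SNHG7 (0.02) and SNHG1 (−0.01) stood near 0. A rise of 1.5-fold or more was met by 2 members, against 5.29% of all genes, and a fall of that size by 0 members, against 3.7%. On 18 September the median was −0.09 with 5 of 9 below 0, against −0.01 and 52.5% over all tested genes. SNHG6 had 0.65 and SNHG12 0.25, and the other 7 lay between −0.16 and 0.05, so 1 member reached 1.5-fold, where 5.12% of all genes did, and 0 members fell that far, where 3.14% did. Thus 8 of 9 members were lower on the first date and higher on the second, a combination met by 27.8% of all genes. Whether the dates differed in the effect of the mimic was not tested.

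**Figure D2:**
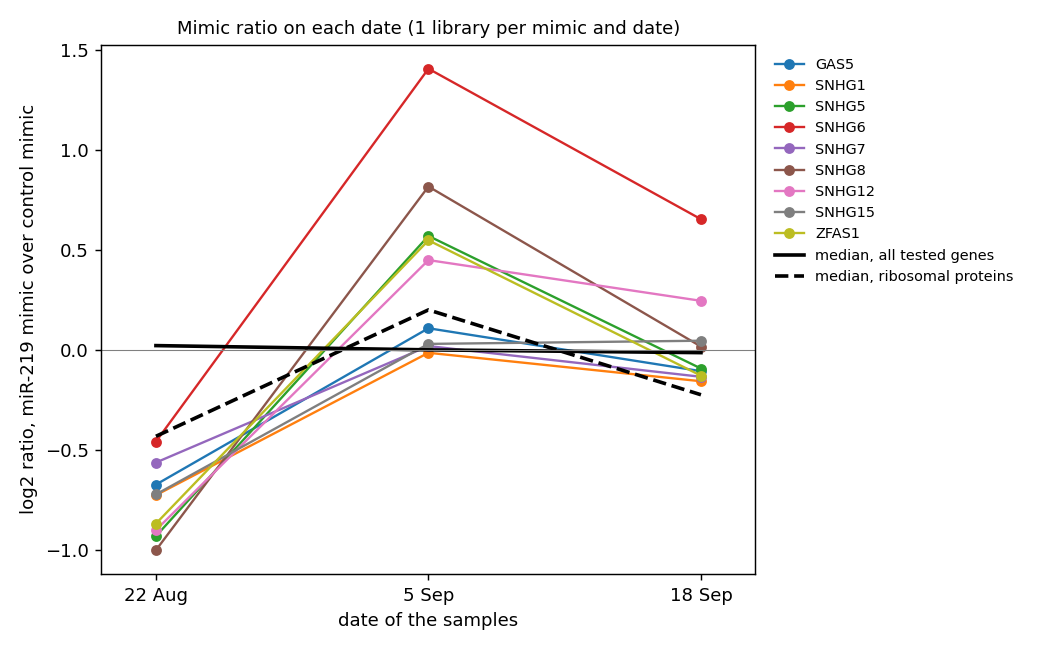
Log2 ratio of the miR-219 mimic library to the control library (y axis) on each date (x axis) for the 9 host transcripts, with the median of all tested genes and of ribosomal protein genes as black lines. All 9 lie between −1.001 and −0.46 on 22 August, and 8 lie above 0 on 5 September.

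Dates were then compared. In the test over the 3 dates with mimic as a term 0 of 9 passed, while 0.308% of all genes did. The lowest unadjusted p of a member in that test was 0.0605 by edgeR, in SNHG7. DESeq2 and limma-voom likewise called 0 members. Against the other dates, 0 members passed for 22 August, where 0.333% of all genes were higher and 0.00616% lower, and 0 for 18 September, where 0.0493% were lower. SNHG7 had the largest spread between dates relative to its error. Its log2 difference against the mean of the other dates was 0.36 (SE 0.14) for 18 September and −0.35 (SE 0.14) for 22 August. The edgeR p for these was 0.0352 and 0.0426 unadjusted, and 0.279 and 0.718 adjusted. SNHG15 was the member with the highest value for 5 September, at 0.38 (SE 0.17). The count of members called moved when a single library was left out, and so did the count over all genes. Each such fit left 1 library on 1 of the dates and 1 degree of freedom, so no call from it was read as a result about the members.

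The 2 libraries with no IGHA1 read were low in most members. In 7 of 9 members these were the 2 lowest of the 6, against 13.3% of all tested genes, and in 0 of 9 were they the 2 highest, against 11.6%. The margin was wide in SNHG8 (8.81 and 11.5 CPM against 17.7 to 20.3 CPM in the other 4) and in ZFAS1 (20.9 and 27.4 CPM against 38.1 to 42.4 CPM). It was narrow in SNHG7 (73.0 CPM for the higher of the 2 against 74.1 CPM for the lowest of the 4) and in SNHG12 (20.29 against 20.32 CPM). GAS5 stood between, with 43.4 and 52.2 CPM against 56.3 to 69.3 CPM. In SNHG1 and SNHG15 only the mimic library of 22 August was low. The mimic library of 22 August was the lowest of all in 8 of 9 members, and in 19.3% of all genes. The 2 libraries were grouped by IGHA1 after the values had been seen, they are not groups of the study, and no difference between them and the other 4 was tested.

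Library properties were set beside this pattern. The members are short, with a median length of 1698 bases against 3148 for all tested genes. The rank correlation across genes between length and the deviation of a library from the mean was 0.295, 0.191 and −0.229 for the mimic libraries and −0.331, 0.329 and −0.319 for the control libraries in date order, so the 2 libraries with no IGHA1 read had the highest values. With this trend removed the median log2 ratio of the members was −0.69, 0.43 and −0.07 on the 3 dates. Mitochondrially encoded transcripts did not follow it. They made up 13.3% of counts in the mimic library of 22 August, the highest share, and 5.66% in the control library of 5 September, the lowest. With AGO2 and the mitochondrial genes left out before normalization all 9 members were again below 0 on 22 August.

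**Figure D3:**
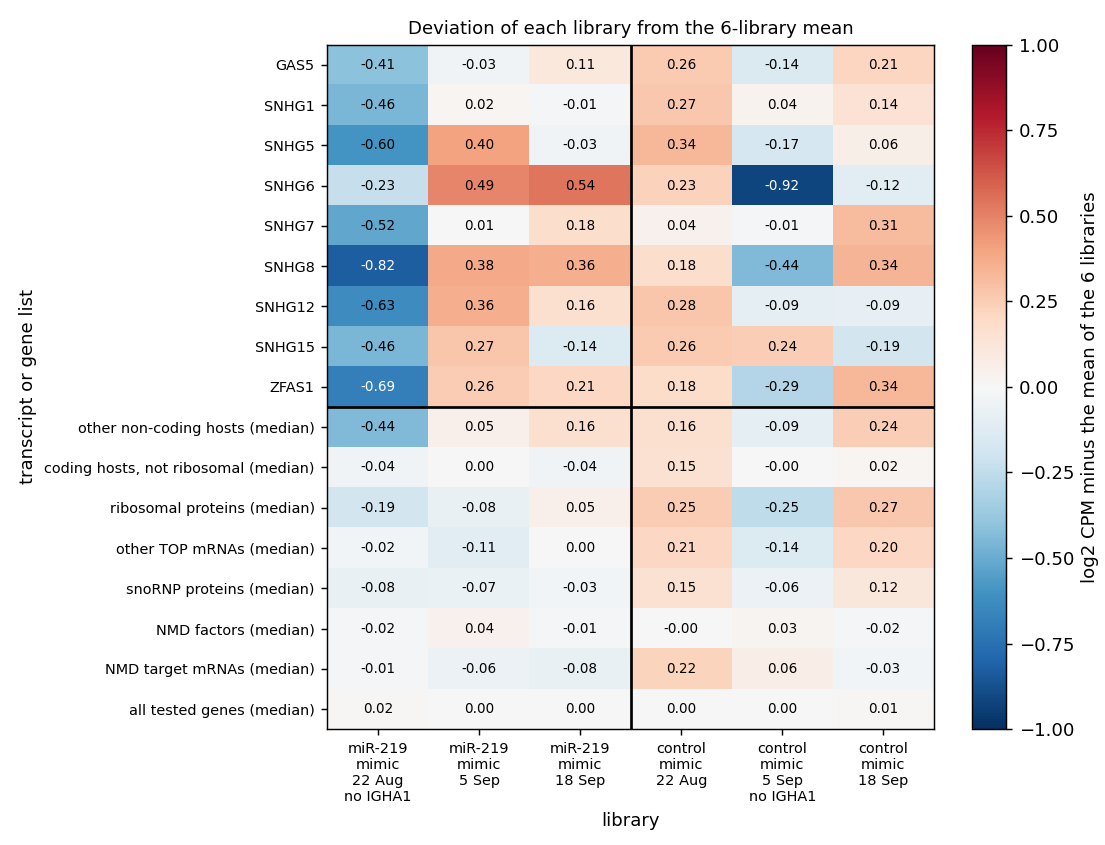
Deviation of log2 CPM from the mean of the 6 libraries (colour and printed value) for each host transcript and for the median of each gene list (rows) in each library (columns, mimic left of control). The mimic library of 22 August is below the mean in all 9 members, from −0.82 in SNHG8 to −0.23 in SNHG6.

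The mimic was next compared within each set of libraries. In the pair with no IGHA1 read (mimic of 22 August, control of 5 September) 8 of 9 members were lower with the mimic, against 50% of all genes. The pair is 1 library against 1 of another date, so mimic and date cannot be told apart in it. The log2 difference was −0.70 in SNHG15, −0.54 in SNHG12, −0.51 in SNHG7, −0.50 in SNHG1 and −0.27 in GAS5, while SNHG6 had 0.69. In the 4 libraries with IGHA1 reads (2 mimic, 2 control) it was −0.20 in GAS5 and −0.20 in SNHG1, between −0.08 and 0.17 in the 6 others, and 0.46 in SNHG6. There the groups did not overlap in 4 members. GAS5 and SNHG1 were lower with the mimic, an order met by 19.9% of all genes, and SNHG6 and SNHG8 were higher, met by 17.4%. The sign was the same in both sets for GAS5, SNHG1, SNHG6, SNHG7 and ZFAS1 and turned in SNHG8, SNHG12 and SNHG15. SNHG5 was near 0 in the 4 libraries, at −0.01 as a difference of mean log2 CPM and 0.0045 by edgeR.

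With the IGHA1 set as a term beside mimic, edgeR called 0 members (smallest adjusted p 0.895) and 0% of all genes. With the date added as well the fit had 1 degree of freedom left among samples and called 5 of 9 members. GAS5 (log2 difference −0.22, edgeR adjusted p 0.0110), SNHG1 (−0.30, 0.000141), SNHG7 (−0.23, 0.00681) and SNHG15 (−0.22, 0.00737) were lower, where 7.95% of all genes were called lower. SNHG6 was higher (0.54, 0.00220), where 6.37% of all genes were. The differences were close to those in the fit without these terms, and the standard error of GAS5 was 0.07 there against 0.17. These calls rest on a spread estimated from a single remaining contrast and on a term chosen with the values known.

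**Figure D4:**
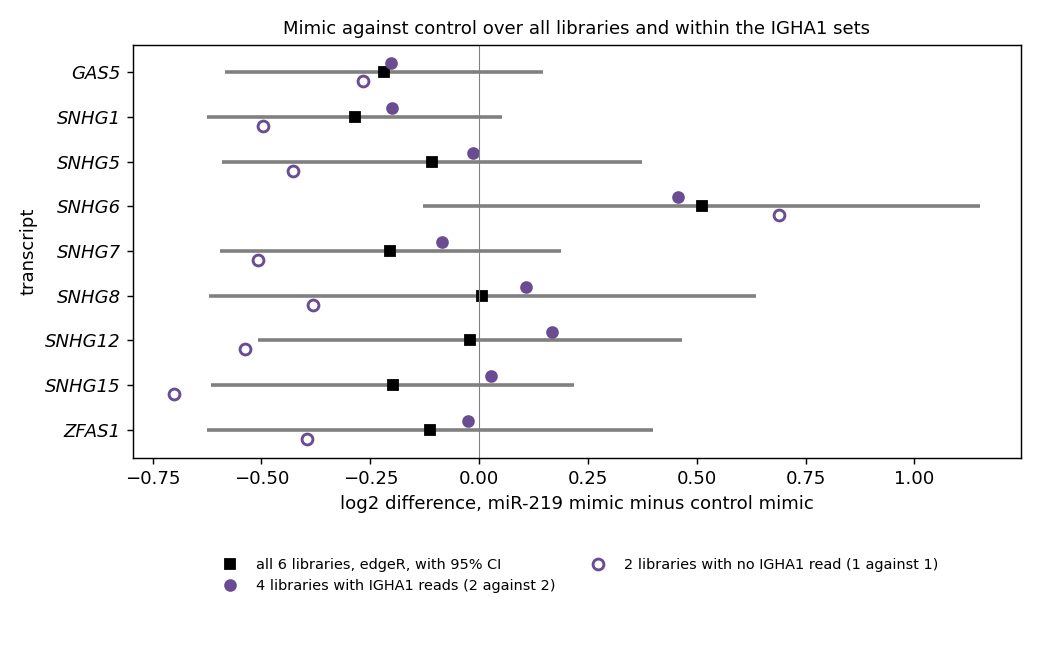
Log2 difference between miR-219 mimic and control mimic (x axis) for each host transcript (y axis), from all 6 libraries by edgeR (squares with 95% CI), from the 4 libraries with IGHA1 reads (filled circles) and from the 2 with none (open circles). GAS5, SNHG1, SNHG7, ZFAS1 and SNHG5 lie below 0 and SNHG6 above 0 in all 3, and every interval includes 0. In the 4 libraries with IGHA1 reads ZFAS1 (−0.03) and SNHG5 (−0.01) are near 0.

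The likeness of the members to each other depended on which libraries were included. Pearson's r between members over log2 CPM had a median of 0.77 over 36 pairs (range 0.03 to 0.99), and the points share library, depth and preparation. With that library left out it was 0.43 (range −0.95 to 0.98), and within the 4 libraries with IGHA1 reads it was −0.15 (range −0.99 to 0.96). GAS5 was closest to SNHG1 (r = 0.91) and ZFAS1 (0.90), which stood at 0.73 and 0.71 without that library. SNHG15 had 0.41 with it and −0.42 without it.

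Outside the members, the genes most like GAS5 over the 6 libraries were UBA2 (r = 0.997), MTHFD2 (0.995), PPP3CB (0.995), CACYBP (0.994) and DNAAF2 (0.993). UBA2 is a subunit of the SUMO-activating enzyme and had 350, 415 and 440 CPM under miR-219 against 463, 398 and 457 CPM under the control mimic. MTHFD2, a mitochondrial folate enzyme, had 185, 215 and 235 CPM under miR-219 against 256, 211 and 245 CPM under the control mimic. The genes most like the mean profile of the members were HNRPDL (r = 0.998), a splicing regulator, MRPL18 (0.995), a mitochondrial ribosomal protein, NMRK1 (0.994), MMADHC (0.993) and SMN2 (0.993). SMN2 shares nearly all its sequence with SMN1, so its counts are uncertain. These were the 5 highest of 16233 genes for each profile, over only 6 libraries.

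Other genes of snoRNA production were looked at by list. Of 10 tested further non-coding hosts, 10 had a log2 fold change below 0 and 0 passed (median −0.18). Their median log2 ratio was −0.62, 0.00 and −0.11 by date, and in 4 of the 10 the 2 libraries with no IGHA1 read were the lowest. SNHG10 had 5.18, 7.44 and 5.09 CPM under miR-219 against 8.22, 7.51 and 8.97 CPM under the control mimic (log2 difference −0.47, SE 0.20). SNHG16 had 70.5, 97.5 and 97.1 CPM under miR-219 against 105, 98.2 and 125 CPM under the control mimic (log2 difference −0.31, SE 0.16). Both had the mimic lower on every date, by little on 5 September.

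Of 29 protein-coding hosts that are not ribosomal, 21 were below 0 and 0 passed, with a median of −0.08. RNF149, a ubiquitin ligase gene that hosts a snoRNA, had a log2 fold change of −0.28 (SE 0.14) and AP1G1, an adaptor subunit of vesicle coats, 0.31 (SE 0.15). Their median was −0.21, 0.04 and −0.08 by date. Of the 18 proteins that build snoRNA particles 13 were below 0 and 0 passed (median −0.09). NOP10, part of the core of pseudouridylating particles, had −0.35 (SE 0.15) and RUVBL2, an ATPase of particle assembly, −0.31 (SE 0.16).

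Transcripts that share the TOP tract or the decay route were set beside the hosts. Ribosomal protein genes had medians of −0.43, 0.20 and −0.22 by date, and in 36 of 81 (44.4%) the 2 libraries with no IGHA1 read were the lowest. Of the 81, 75 had a log2 fold change below 0 (median −0.19) and 0 passed. RPS23, a protein of the small ribosomal subunit, was among the 6 above 0, at 0.44 (SE 0.14). Other TOP mRNAs had medians of −0.23, 0.04 and −0.24, with 13 of 17 below 0 overall and 0 passing. EIF3H, an initiation factor subunit, had a log2 fold change of −0.26 (SE 0.16). NMD factors had medians of 0.02, −0.0047 and −0.05, with 9 of 17 below 0 and 0 passing. CASC3, a component of the exon junction complex, had 0.22 (SE 0.13) and SMG8, a partner of the SMG1 kinase, −0.18 (SE 0.13). The 12 NMD target mRNAs had medians of −0.24, −0.14 and −0.02, with 11 below 0 overall and 0 passing. CHAC1 had −0.31 (SE 0.13) and TBL2 −0.22 (SE 0.13). In 1 of these 12 the 2 libraries with no IGHA1 read were the lowest, against 13.3% of all tested genes. The same held in 4 of 17 NMD factors, 4 of 17 other TOP mRNAs and 1 of 18 snoRNA particle proteins. Among hosts it held in 7 of 29 coding hosts, 4 of 10 further non-coding hosts and 7 of the 9 members. These lists share the libraries with the hosts, and no list was tested against another.

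The snoRNAs themselves could hardly be followed. Of 32 snoRNAs listed for the 9 hosts, only SNORD87 had a row, with 0 counts over the 6 libraries, so spliced host and excised snoRNA were not compared here.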

How the data were processed

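The deposited table holds whole-number counts per gene, which the authors made with STAR 2.5 and HTSeq 0.6.1 on hg19, as far as the submitters' processing notes list tools. The notes also list DESeq2, and the strand setting is not given in the sources used here. Mimic and date came from the labels, and 0 value columns were left unmapped. Gene lengths are those in the table.

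Genes were kept by filterByExpr (minimum count 10, minimum total 15). Tests used edgeR 4.0.16 in R 4.3.3 with TMM and the quasi-likelihood F test, without a block, and Benjamini-Hochberg adjustment over 16233 genes at 0.05. The test over dates had mimic as a term. Single-date log2 ratios were taken with a prior count of 2 and read against a fold of 1.5. SE was obtained from the log2 fold change and its F statistic. DESeq2 1.42.0 and limma 3.58.1 (limma-voom) served as alternatives. Sequences were read with Python 3.11.15 and pandas 2.3.3 and drawn values with matplotlib 3.10.9.

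The labels give a shared date, so libraries were paired by date for the block. Deviations of same-date libraries correlated at 0.0466, 0.154 and 0.513 in date order. The biological coefficient of variation was 17.1%, and libraries correlated at 0.980 to 0.991. Each member had 104 counts or more per library.

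The members and lists were chosen with earlier results of these data known. All 9 members were named, with the 2 genes of lowest p per list and the 5 most like GAS5 or the mean of the members. Some genes that this rule names are not reported here. The removal of length trends (loess, span 0.5) and the terms for libraries with no IGHA1 read were added after values were seen. A planned permutation test of snoRNA levels was not run because 1 of 32 snoRNAs had a row. The code was tested on simulated data.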

Additional observations from a re-analysis of the deposited data

Results flagged for a closer look

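The ratio of mimic to control had opposite signs on 22 August and 5 September in 8 of the 9 host transcripts, lower on the first date and higher on the second, as in 27.8% of all tested genes. Ribosomal protein genes also had a median below 0 on the first date (−0.43) and above 0 on the second (0.20). Each date had 1 library per mimic, and the difference between dates was not tested. The log2 ratio of 22 August minus that of 5 September was −1.87 in SNHG6, −1.82 in SNHG8, −1.50 in SNHG5 and −1.42 in ZFAS1. It was −1.35 in SNHG12, −0.78 in GAS5, −0.75 in SNHG15 and −0.58 in SNHG7. The mimic library of 22 August and the control library of 5 September, which have no IGHA1 read, enter these differences with the same sign. No group had the 4 samples that a check for single outlying libraries needs.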

How the results depend on the processing

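Over all tested genes the SE of the mimic effect had a median of 0.18 (log2), which limits the shifts that 3 libraries per group can show. The causes of the changes below were not tested, and some of the fits leave fewer degrees of freedom. Genes called higher and lower were 0 and 0 with other scalings, limma-voom, the replicate block in edgeR and any library left out. They were 6 and 14 with no filter. DESeq2 gave 2 and 3, or 4 and 6 when the replicate block was added. They were 1034 and 1290 with date as replicate block and the IGHA1 term. The replicate block alone changed no call of a member. Genes that differed between dates went from 50 to 576 with no filter and 165 with DESeq2, and to between 55 and 4239 with a library left out, while members called ranged from 0 to 9. Members below 0 on 5 September went from 1 to 0 with upper quartile scaling, with raw totals and with the length trend removed. The median log2 ratios of the members stayed between −0.81 and −0.69, between 0.43 and 0.50 and between −0.09 and −0.05 on the 3 dates over 5 such settings. The median log2 fold change of the 9 was −0.25 to 0.12 with a library left out.

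The sign of 5 members turned under some alternatives. SNHG12 was 0.0029 with upper quartile scaling, 0.024 with the length trend removed, 0.17 within the libraries with IGHA1 reads and 0.35 without both libraries of 22 August. SNHG8 was −0.049 with limma-voom, −0.041 with the replicate block, −0.050 with DESeq2 and the block, −0.052 with the IGHA1 term and −0.055 with date and that term. It was −0.38 without both libraries of 5 September and −0.0015 without those of 18 September. SNHG5 was 0.0045 within the libraries with IGHA1 reads and 0.26 without 22 August, SNHG15 0.033 and 0.038, and ZFAS1 0.18 without 22 August. With single libraries left out SNHG5 ranged from −0.38 to 0.12, SNHG8 from −0.19 to 0.31, SNHG12 from −0.23 to 0.22 ZFAS1 from −0.27 to 0.14 and SNHG15 from −0.41 to −0.038. GAS5, SNHG1, SNHG7 and SNHG6 kept their sign in all 21 alternatives but not their size. With single libraries left out GAS5 ranged from −0.33 to −0.082, SNHG1 from −0.37 to −0.14, SNHG7 from −0.36 to −0.023 and SNHG6 from 0.24 to 0.79. Without both libraries of 22 August GAS5 was −0.0052 and SNHG1 −0.084, and without both of 5 September SNHG6 was 0.13. No member name was repeated, so rows were not summed.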
